A study of Gallus gallus with 6 samples.

Results

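The genes described are the insulin-like growth factor (IGF) family of the chick gut, taken as every gene whose symbol in the deposited series table is IGF1, IGF2, IGF1R, IGF2R or IGFBP followed by a single digit. The rule found 8 of the 17108 genes listed, namely IGF2, IGF2R, IGFBP1, IGFBP2, IGFBP3, IGFBP4, IGFBP5 and IGFBP7. Transcripts were measured by RNA-seq in 3 libraries of ceca, the paired blind outgrowths of the avian gut, and in 3 libraries of the adjoining region that the labels call interceca. Both regions were dissected from guts of chick embryos at embryonic day 5 (Hamburger-Hamilton stage 26), with no treatment or genetic change named for either. No label tells if the 3 libraries of one tissue stem from different embryos or pools of embryos, so the p-values reflect spread among these libraries alone, which could be technical.

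IGF1 and IGF2 are secreted growth factors that act through the tyrosine kinase receptor IGF1R to promote growth and survival. IGF2R, also known as the cation-independent mannose 6-phosphate receptor, carries lysosomal enzymes and in mammals removes IGF2 from the cell surface, whereas the chicken receptor lacks high-affinity IGF2 binding. The IGF binding proteins (IGFBPs) hold the ligands outside the cell, protect them or keep them from the receptor, and are in turn cut by secreted proteases.

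The carrier IGFBP2 and the ligand IGF2 were higher in ceca. IGFBP2 stood at 114 ± 3.47 RPKM (reads per kilobase of counted gene length, scaled to library size) in ceca and 44.9 ± 2.13 RPKM in interceca (SD, n = 3 each). IGF2 stood at 11.9 ± 0.47 RPKM in ceca and 8.22 ± 0.685 RPKM in interceca. Of the 7 members that passed the filter of 1 RPKM in at least 3 libraries, limma called 2 higher in ceca and 0 lower at an adjusted p under 0.05, and 5 missed that threshold. Over all 10678 genes tested, 13.5% were called higher in ceca and 14.1% lower. The median log2 fold change of the 7 members was 0.26, against 0.01 over all genes tested. The remaining member, IGFBP1, was below the filter. In these bulk samples a difference in the number of cells of a type and a difference in RNA per cell cannot be told apart.

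**Figure D1:**
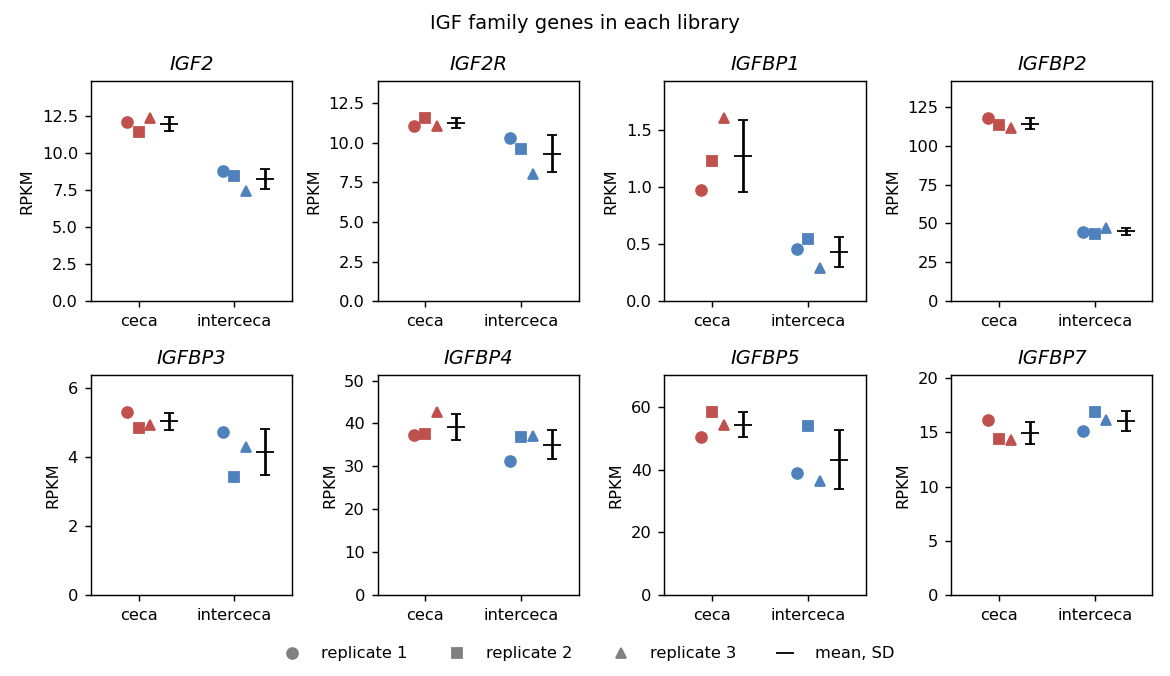
RPKM of the 8 IGF family genes in each library, ceca at the left and interceca at the right of each panel, with the mean and SD of 3 libraries in black. IGFBP2 lies at 111 to 118 RPKM in ceca and 43.1 to 47.2 RPKM in interceca, whereas the tissues overlap for IGFBP5 and IGFBP7.

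Among the ligands, IGF2 (ENSGALG00000006555) had 12.05, 11.4 and 12.4 RPKM in ceca replicates 1 to 3 and 8.76, 8.46 and 7.45 RPKM in interceca replicates 1 to 3. Every ceca library lay above every interceca library. Limma gave a log2 fold change of 0.52 ± 0.08 (SE) with a Benjamini-Hochberg adjusted p of 0.00269, and the fold change lay between 0.45 and 0.56 over 16 alternative fits. The values rested on 484 to 522 reads per library in ceca and 268 to 333 in interceca, recovered from the RPKM steps. INS, the insulin gene that neighbours IGF2 in the RefSeq gene table (assembly GRCg7b), was listed at 0 in all 3 ceca libraries and had 0, 1 and 2 reads in interceca.

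No row of the table carries the symbol IGF1 or IGF1R. The symbol IGF-I, which RefSeq gives as another name of IGF1, stands on 2 rows with different identifiers. ENSGALG00000012755 was listed at 0 in all 6 libraries. ENSGALG00000007039 had 31.4, 37.7 and 34.4 RPKM in ceca replicates 1 to 3 and 24.4, 29.5 and 25.0 RPKM in interceca replicates 1 to 3, with no overlap between the tissues. The length over which its reads were counted, recovered from the RPKM steps, was 4551 bases. Which product this row measures could not be settled from the sources used here, so it is kept apart from the 8 members and no role is given to it. Its log2 fold change was 0.39 ± 0.09 with an adjusted p of 0.0164, which was 0.0539 without ceca replicate 2, 0.0535 without ceca replicate 3 and 0.0575 without interceca replicate 3.

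IGF2R (ENSGALG00000011621), the mannose 6-phosphate receptor, had 11.02, 11.6 and 11.05 RPKM in ceca replicates 1 to 3 and 10.3, 9.62 and 8.02 RPKM in interceca replicates 1 to 3. The tissues did not overlap, but the interceca libraries spread widely and the highest of them came close to the ceca libraries. Ceca exceeded interceca by 0.26 ± 0.10 on the log2 scale with an adjusted p of 0.0855 and a 95% interval of 0.04 to 0.49, so no difference was called. Without interceca replicate 3 the log2 fold change was 0.16. The adjusted p was 0.0487 without interceca replicate 1 and 0.0326 with limma-voom on the recovered reads. In RefSeq a non-coding RNA gene overlaps IGF2R, and reads of overlapping genes may be uncertain because the library kit keeps strand but its use in counting is not stated.

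IGFBP2 (ENSGALG00000011469), a carrier found in many embryonic tissues, had 118, 113 and 111 RPKM in ceca replicates 1 to 3 and 44.5, 43.1 and 47.2 RPKM in interceca replicates 1 to 3. All ceca libraries stood far above all interceca libraries, and the spread within a tissue was small in both. Its log2 fold change was 1.34 ± 0.05 with an adjusted p of 3.19e-06, and it stayed between 1.31 and 1.37 over 16 alternative fits. Among the 1439 genes called higher in ceca it held place 104 by fold change, and 98.9% of all genes tested had a lower log2 fold change. The coefficient of variation between libraries was 3.04% in ceca and 4.73% in interceca, against 2.56% and 4.30% from the counting of reads alone.

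**Figure D2:**
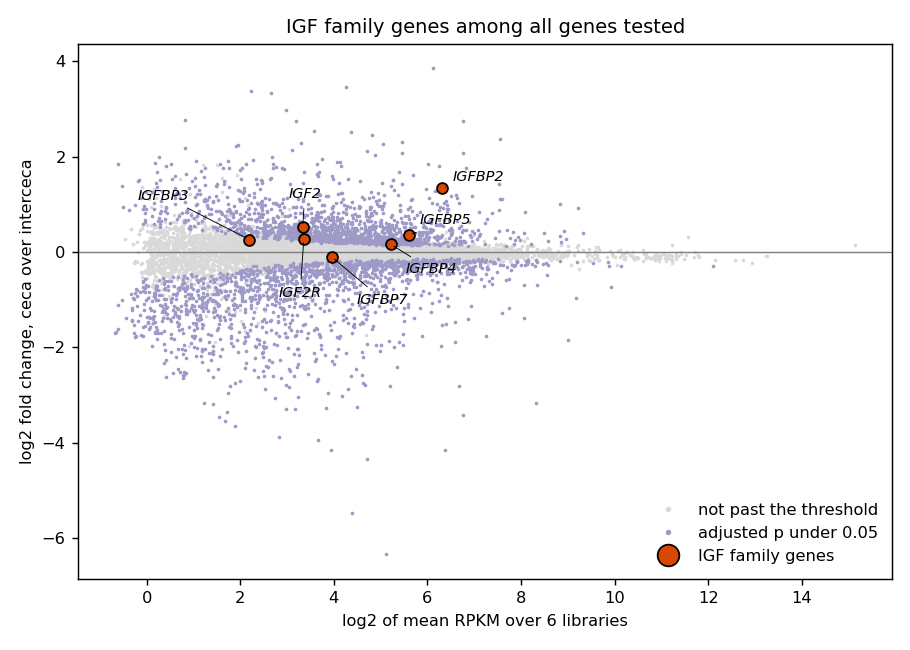
Log2 fold change of ceca over interceca against the log2 of the mean RPKM for the 10678 genes tested, with the 7 tested IGF family genes in orange. IGFBP2, at 1.34, lies apart from the other 6 members, which range between -0.10 and 0.52.

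IGFBP5 (ENSGALG00000011468), a carrier that binds extracellular matrix, had 50.5, 58.6 and 54.3 RPKM in ceca replicates 1 to 3 and 39.0, 54.0 and 36.6 RPKM in interceca replicates 1 to 3. Replicate 2 was the highest library of each tissue, and interceca replicate 2 lay within the ceca range. Its log2 fold change was 0.35 ± 0.14 with an adjusted p of 0.0968 and a 95% interval of 0.03 to 0.67. With the replicate number as a block its adjusted p was 0.0138, and without interceca replicate 2 it was 0.00396 with a log2 fold change of 0.52. Variation between the interceca libraries was 21.9%, against 3.49% from counting alone. A non-coding RNA gene overlaps IGFBP5 in RefSeq.

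IGFBP4 (ENSGALG00000028931), a carrier that is cut by the protease PAPPA, had 37.3, 37.5 and 42.8 RPKM in ceca replicates 1 to 3 and 31.3, 36.8 and 37.2 RPKM in interceca replicates 1 to 3. The tissues met almost without a gap, with ceca replicate 1 just above interceca replicate 3. The log2 fold change was 0.16 ± 0.08 with an adjusted p of 0.206 and a 95% interval of -0.04 to 0.35. It was 0.08 without interceca replicate 1 and 0.09 without ceca replicate 3.

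IGFBP3 (ENSGALG00000012439), the main IGF carrier of mammalian serum, had 5.31, 4.84 and 4.92 RPKM in ceca replicates 1 to 3 and 4.72, 3.42 and 4.28 RPKM in interceca replicates 1 to 3. The ceca libraries were all above the interceca libraries by a narrow margin. The log2 fold change was 0.26 ± 0.13 with an adjusted p of 0.172 and a 95% interval of -0.03 to 0.55, and it was 0.14 without interceca replicate 2.

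IGFBP7 (ENSGALG00000011339), which binds IGFs only weakly and is known from blood vessels, was the member with a negative log2 fold change. It had 16.1, 14.3 and 14.3 RPKM in ceca replicates 1 to 3 and 15.1, 16.9 and 16.1 RPKM in interceca replicates 1 to 3, so the tissues overlapped. The log2 fold change was -0.10 ± 0.07 with an adjusted p of 0.35 and a 95% interval of -0.27 to 0.07. Leaving out ceca replicate 1 gave -0.16, and leaving out interceca replicate 2 gave -0.07. Endothelial markers were present in both tissues, and their summed level over 7 genes was 130 to 141 RPKM in ceca and 107 to 141 RPKM in interceca. Of the 7, 3 were higher and 1 was lower in every ceca library. POLR2B overlaps IGFBP7 in RefSeq and stood at 47.9 ± 1.05 RPKM in ceca and 46.7 ± 1.42 RPKM in interceca.

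IGFBP1 (ENSGALG00000012437), a carrier made mainly by the adult liver in mammals, had the lowest level of the 8 members in both tissues. It had 0.978, 1.23 and 1.61 RPKM in ceca replicates 1 to 3 and 0.459, 0.548 and 0.289 RPKM in interceca replicates 1 to 3. These values rested on 70, 98 and 121 reads in ceca and on 25, 38 and 23 reads in interceca, and the tissues did not overlap. An exact two-sided permutation test of the means gave p = 0.1, the smallest that 3 against 3 libraries allow. That value follows from the lack of overlap and adds nothing to it. Fitted without the filter, its log2 fold change was 0.92 ± 0.17 with an adjusted p of 0.0107 in limma, and 1.59 ± 0.32 with an adjusted p of 0.00351 in limma-voom on the recovered reads, a setting chosen after seeing the data. In those fits 9.89% and 11.5% of the genes were called higher in ceca. The pseudocount of 0.5 RPKM is close in size to the interceca values and lowers the fold change in limma.

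**Figure D3:**
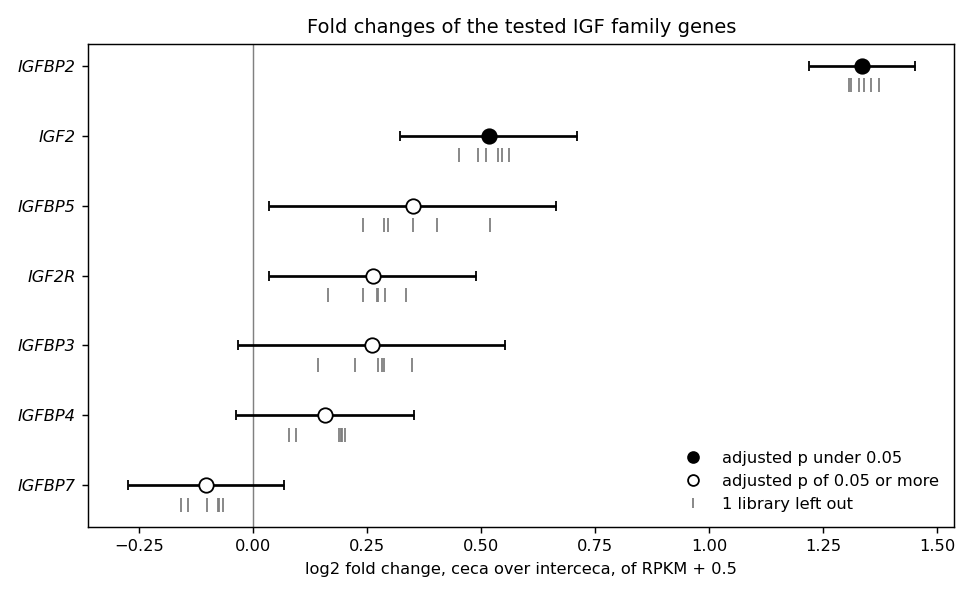
Log2 fold change of ceca over interceca for the 7 IGF family genes tested, with 95% intervals (bars), and the 6 values obtained when 1 library was left out (grey ticks). IGFBP2 and IGF2 have filled circles, for an adjusted p under 0.05, and the tick of IGFBP5 at 0.52 is the fit without interceca replicate 2.

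In 5 of the 7 members tested all ceca libraries lay above all interceca libraries, 0 had the reverse, and in the other 2 the tissues overlapped. Over all genes tested, 23% had all ceca libraries above all interceca libraries and 21.1% had the reverse, so that 44.1% did not overlap. The authors' deposited table, which holds their own comparison, gives an adjusted p under 0.05 for 5 of the 8 members. In the authors' deposited table these 5 are IGFBP2 (1.16e-54), IGFBP1 (1.29e-06), IGF2 (3.88e-05), IGF2R (0.019) and IGFBP5 (0.0465), each with a positive log fold change. Over all genes listed, the authors' deposited table gives an adjusted p under 0.05 for 20.9%, and for 9.8% with a higher level in ceca. Those shares include genes at 0 in every library, as only 14080 of the 17108 genes listed were above 0 in any library. All 8 members were above 0. IGF2R and IGFBP5 were therefore called in the authors' deposited table and not in the limma fit.

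By level per length, the members had the order IGFBP2, IGFBP5, IGFBP4, IGFBP7, IGF2, IGF2R, IGFBP3 and IGFBP1 in ceca. Only IGF2 and IGF2R, as neighbours in that order, overlapped between libraries in ceca, at 11.4 to 12.4 RPKM for IGF2 and 11.02 to 11.6 RPKM for IGF2R. In interceca IGFBP2, at 43.1 to 47.2 RPKM, lay within the range of IGFBP5, at 36.6 to 54.0 RPKM, which in turn overlapped IGFBP4 at 31.3 to 37.2 RPKM. There IGF2 at 7.45 to 8.76 RPKM and IGF2R at 8.02 to 10.3 RPKM overlapped too. The mean level of IGFBP2 was above that of 94.3% of genes tested in ceca and of 81.3% in interceca.

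The summed level of the 6 IGFBP genes was 228, 230 and 229 RPKM in ceca replicates 1 to 3 and 135, 155 and 142 RPKM in interceca replicates 1 to 3. IGFBP2 made up 48.5 to 51.7% of that sum in ceca and 27.8 to 33.3% in interceca. IGFBP4 made up 16.3 to 18.7% in ceca and 23.1 to 26.2% in interceca, and IGFBP7 6.24 to 7.06% in ceca and 10.9 to 11.4% in interceca. These shares follow from the members' own levels and are given as a description, with no test. They also rest on the counted lengths, which ranged from 610 bases for IGFBP2 to 3441 bases for IGFBP1. The summed IGFBP level was 18.5 to 20.1 times the level of IGF2 in ceca and 15.4 to 19.0 times in interceca, so this ratio overlapped between the tissues.

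**Figure D4:**
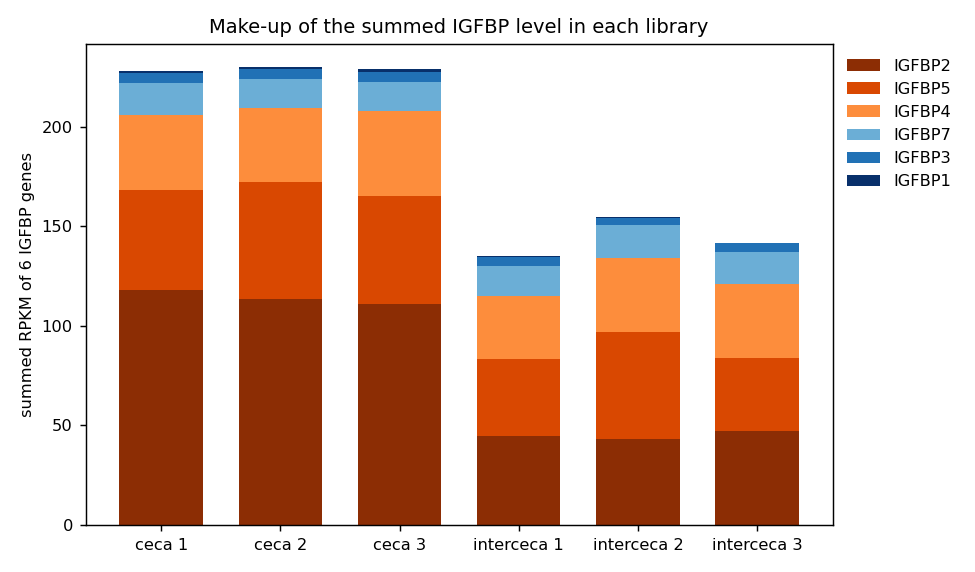
Summed RPKM of the 6 IGFBP genes in each library, ceca at the left, with each gene as a coloured segment. The sums are 228 to 230 RPKM in ceca and 135 to 155 RPKM in interceca, and the lowest segment is IGFBP2.

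Several of these genes neighbour each other. In RefSeq, IGFBP5 and IGFBP2 have no protein-coding gene between them. The level of IGFBP2 was 2.33, 1.94 and 2.04 times that of IGFBP5 in ceca replicates 1 to 3 and 1.14, 0.798 and 1.29 times in interceca replicates 1 to 3, with no overlap. RPL37A, a ribosomal protein gene on the other side of IGFBP2, was at 3438 ± 98.4 RPKM in ceca and 3615 ± 243 RPKM in interceca (-0.07 ± 0.08 on the log2 scale, adjusted p = 0.584 in limma). IGFBP1 and IGFBP3 are likewise direct neighbours, between ADCY1 and TNS3. ADCY1, an adenylate cyclase gene, was at 1.08 ± 0.0699 RPKM in ceca and 0.329 ± 0.035 RPKM in interceca, and passed the filter through its ceca libraries alone, so its test is not given. TNS3, which encodes a focal adhesion protein, was at 30.3 ± 2.59 RPKM in ceca and 21.98 ± 2.54 RPKM in interceca, with a log2 fold change of 0.46 ± 0.09 (adjusted p = 0.00867 in limma).

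The genes whose levels followed the called members most closely were looked up among 9103 tested genes with a symbol and a mean of at least 2 RPKM. For IGFBP2 they were RAB40C, ZFPM2 and XKR8, with Pearson correlations of 0.9997, 0.999 and 0.999 over the 6 libraries. For IGF2 they were GM2A, FAK and RUNX1T1, with correlations of 0.998, 0.998 and 0.996. The points share the difference between the tissues, and 5.67% of the genes searched exceeded 0.95 with IGFBP2 and 5.35% with IGF2.

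Of 14 genes listed for proteins that act on IGFs and IGFBPs outside the cell, 10 were found on a row of their own and 6 were tested, with 0 called higher in ceca, 2 called lower and 4 without a call, where 13.5% of all genes tested were called higher and 14.1% lower. VTN, the plasma and matrix protein vitronectin, which can bind IGF2 and IGFBP5, had 6.11, 9.96 and 11.02 RPKM in ceca replicates 1 to 3 and 54.6, 64.8 and 75.5 RPKM in interceca replicates 1 to 3. Its log2 fold change was -2.81 ± 0.21 (adjusted p = 5.39e-05 in limma). HTRA1, a secreted serine protease that can cut IGFBPs, was at 3.15 ± 1.21 RPKM in ceca and 5.64 ± 0.674 RPKM in interceca, with a log2 fold change of -0.81 ± 0.25 (adjusted p = 0.048). That adjusted p was 0.059 without ceca replicate 3 and 0.0646, 0.135 and 0.125 without interceca replicates 1, 2 and 3. The call was also lost with a pseudocount of 0.1 (0.0541), no filter (0.0797), quantile normalization (0.0646) and no trend (0.0726). Without ceca replicate 1 the log2 fold change of HTRA1 was -0.49 (adjusted p = 0.0346).

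PAPPA, the protease that cuts IGFBP4, stayed under the filter. Its level was 0.615 ± 0.0611 RPKM in ceca and 0.403 ± 0.0582 RPKM in interceca. PAPPA2, a related protease that cuts IGFBP3 and IGFBP5, had 0, 0 and 3 reads in ceca and 0, 0 and 1 in interceca. Their inhibitors STC1 and STC2 were low as well, with STC1 at 0.99 ± 0.463 RPKM in ceca and 0.831 ± 0.0816 RPKM in interceca. STC2 was at 1.24 ± 0.388 RPKM in ceca and 2.16 ± 1.13 RPKM in interceca (log2 fold change -0.56 ± 0.31, adjusted p = 0.22 in limma). Its fold change was -0.23 without interceca replicate 3, -0.37 without ceca replicate 1 and -0.32 with quantile normalization. IGFALS, the subunit that in mammals stabilises IGF and IGFBP3 in serum, was listed at 0 in the 3 ceca libraries and had 3, 3 and 7 reads in interceca. IGFALS entered the fits without the filter through its interceca libraries alone, on these few reads, so its test is not given.

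The IGF2BP family, RNA-binding proteins that hold IGF2 and other mRNAs in embryonic cells, was abundant in both tissues. IGF2BP3 had 158, 146 and 147 RPKM in ceca replicates 1 to 3 and 175, 172 and 167 RPKM in interceca replicates 1 to 3, with a log2 fold change of -0.19 ± 0.05 (adjusted p = 0.0218 in limma). That call was lost when ceca replicate 2 (adjusted p = 0.0806) or 3 (0.0888) was left out, when interceca replicate 1 (0.0589) or 2 (0.074) was, with quantile normalization (0.154) and with no trend (0.0606). IGF2BP2 was at 106 ± 5.18 RPKM in ceca and 96.1 ± 1.82 RPKM in interceca (0.14 ± 0.05, adjusted p = 0.0669 in limma, 0.0339 with the replicate block and 0.0411 without ceca replicate 2). IGF2BP1 was at 48.9 ± 1.96 RPKM in ceca and 49.1 ± 2.3 RPKM in interceca (-0.01 ± 0.05, adjusted p = 0.949), with a 95% interval of -0.13 to 0.12.

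The called genes of the wider IGF and insulin pathway lay in both directions. Over the whole list of 67 pathway genes, 53 were found on a row of their own and 42 were tested, with 8 called higher in ceca, 8 called lower and 26 without a call. These 16 called genes were 38.1% of those tested, against 27.5% of all genes tested, and the median log2 fold change of the 42 was 0.06. Without interceca replicate 3 the count higher was 4, and without ceca replicate 3 or interceca replicate 2 the counts were 5 higher and 5 lower. With the replicate block they were 13 higher and 8 lower. That fit also called more of all 10678 genes tested, 1879 higher and 1888 lower, against 1439 and 1502 in the main fit.

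Among 9 tested adaptors, which couple the receptors to PI3K and RAS, limma called 2 higher and 2 lower. Of all genes tested, limma called 13.5% higher in ceca and 14.1% lower. IRS1, the docking protein of the IGF1 and insulin receptors, had 23.9, 22.7 and 22.7 RPKM in ceca replicates 1 to 3 and 16.1, 17.1 and 14.8 RPKM in interceca replicates 1 to 3. All ceca libraries were above all interceca libraries, with a log2 fold change of 0.52 ± 0.07 (adjusted p = 0.000895 in limma). SOS2, a RAS exchange factor, was higher by 0.34 ± 0.06 (adjusted p = 0.00324), and SHC2, an adaptor of receptor kinases, was lower (-0.66 ± 0.13, adjusted p = 0.00583). SHC1, a related adaptor, was lower too (-0.22 ± 0.06, adjusted p = 0.0316). Leaving out ceca replicate 2 (adjusted p = 0.0899) or 3 (0.113), or interceca replicate 2 (0.0952) or 3 (0.0916), ended that call, as did the fit with no trend (0.0645). No row was matched by symbol to IRS2 or to the insulin receptor gene INSR, so neither was analysed here.

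For the PI3K and AKT step, 8 genes were tested, and limma called 1 of them higher in ceca and 1 lower. Of all genes tested, 13.5% were called higher and 14.1% lower. PIK3CB, a catalytic subunit of PI3K, was lower in ceca, at 1.38 ± 0.116 RPKM against 2.85 ± 0.376 RPKM in interceca (-0.83 ± 0.14, adjusted p = 0.00374).

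For the effectors, 11 genes were tested, with 4 calls higher in ceca and 1 lower. The shares over all genes tested were 13.5% higher and 14.1% lower. EIF4EBP1, a repressor of translation that mTOR inactivates, was lower in ceca, at 186 ± 7.85 RPKM against 232 ± 14.1 RPKM in interceca (log2 fold change -0.32 ± 0.06, adjusted p = 0.00468 in limma). The genes called higher were RICTOR, a subunit of the second mTOR complex (0.47 ± 0.12, adjusted p = 0.0235), TSC2 and TSC1, which restrain mTOR (0.33 ± 0.10 and 0.21 ± 0.06, adjusted p = 0.0388 and 0.0361), and the kinase RPS6KB1 (0.15 ± 0.05, adjusted p = 0.0463). Each of these 4 calls was lost when a single library was left out. The adjusted p of RICTOR was 0.0721 when ceca replicate 2 was left out, 0.0664 for interceca replicate 1 and 0.0672 for interceca replicate 3. That of TSC2 was 0.107 when ceca replicate 1 was left out, 0.0946 for ceca replicate 3, 0.0787 for interceca replicate 2 and 0.108 for interceca replicate 3. For TSC1 the same values were 0.103, 0.093 and 0.0721 over ceca replicates 1 to 3, then 0.108 for interceca replicate 2 and 0.0972 for interceca replicate 3. RPS6KB1 gave 0.111, 0.0891 and 0.138 over ceca replicates 1 to 3, then 0.141 for interceca replicate 2 and 0.117 for interceca replicate 3. Quantile normalization also ended the calls of TSC1 (0.0624), TSC2 (0.0508) and RPS6KB1 (0.084). No trend ended those of TSC2 (0.059) and RPS6KB1 (0.0792), and no filter that of TSC2 (0.0579). For RPS6KB1 the adjusted p was 0.0578 with median-of-ratios scaling, 0.0597 with limma-voom and 0.0757 with limma-voom and no filter.

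The growth hormone axis, which controls IGF production after birth, had 5 genes tested, with 1 call higher in ceca and 1 lower (limma). The receptor gene GHR was not analysed, because its symbol stands on more than 1 row, and no row was matched to STAT5B. The shares over all genes tested were again 13.5% higher and 14.1% lower. JAK2, the kinase of the growth hormone receptor, was at 10.3 ± 0.281 RPKM in ceca and 6.99 ± 0.855 RPKM in interceca (0.53 ± 0.10, adjusted p = 0.00553). SOCS1, an inhibitor of cytokine and insulin signalling, was at 2.11 ± 0.0588 RPKM in ceca and 5.18 ± 1.17 RPKM in interceca (-1.10 ± 0.16, adjusted p = 0.00167).

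**Figure D5:**
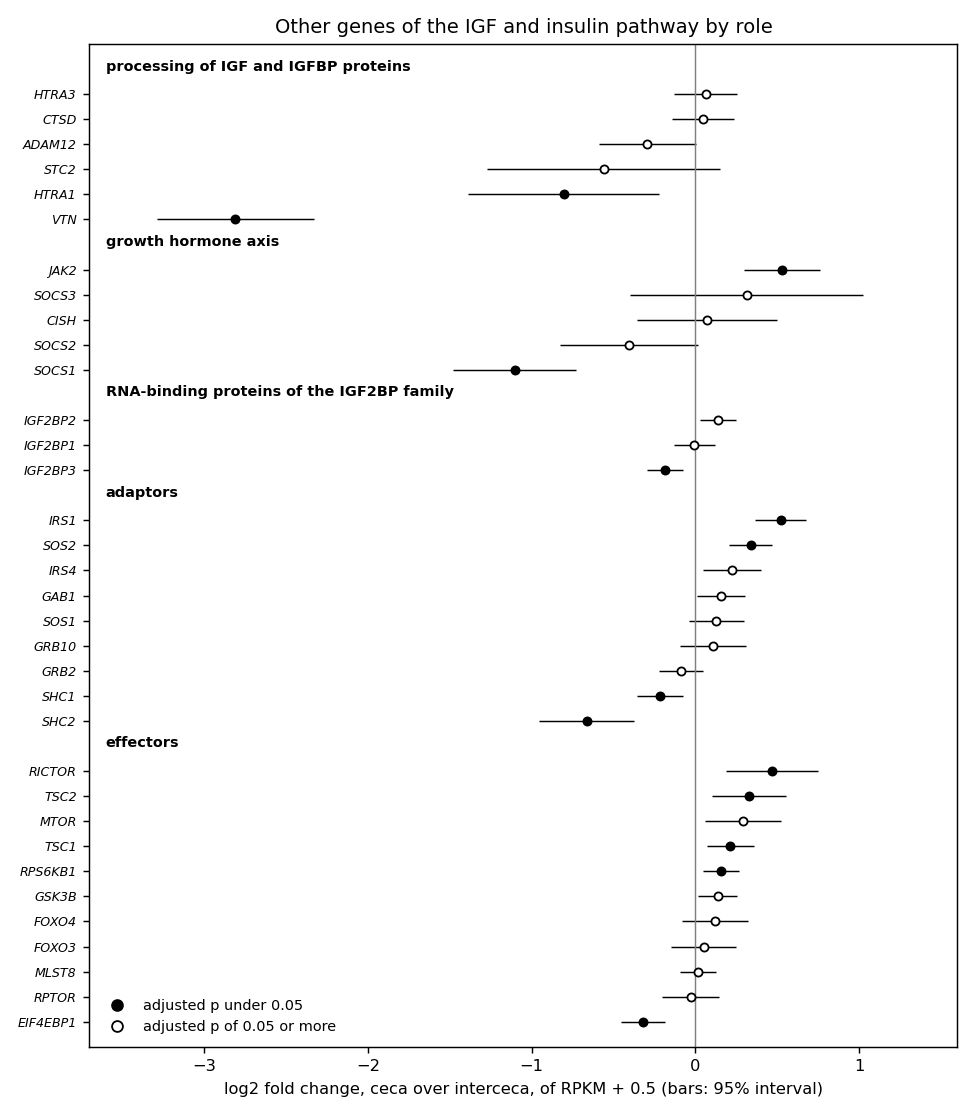
Log2 fold change of ceca over interceca with 95% intervals for 34 tested genes of the IGF and insulin pathway, grouped by role, leaving out the PI3K and AKT step, with filled circles for an adjusted p under 0.05. VTN, at -2.81, lies furthest from 0, and the filled circles fall on both sides.

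Markers of several cell types differed between the tissues. Reads recovered in genes ranged from 14416484 to 21511222 per library, and log2 values correlated at 0.987 to 0.991 within a tissue and at 0.943 to 0.959 between tissues. The summed level of 5 mesothelial markers was 264 to 290 RPKM in ceca and 82.0 to 92.3 RPKM in interceca, with 3 of the 5 higher in every ceca library and MSLN lower. The sum of 8 epithelial markers was 86.2 to 134 RPKM in ceca and 321 to 477 RPKM in interceca. Of the 8, 7 were lower in every ceca library and CDX2 was higher. The sum of 4 smooth muscle markers was 137 to 146 RPKM in ceca and 237 to 261 RPKM in interceca. Of the 4, 3 were lower in every ceca library. MYLK, with means of 104 RPKM in ceca and 112 RPKM in interceca, overlapped between the tissues. The sum of 6 liver and plasma protein genes was 15.8 to 20.9 RPKM in ceca and 238 to 280 RPKM in interceca. Of these 6 genes, 4 were lower in every ceca library and 1, ALB, was higher. The sum of 5 gut mesenchyme markers was 710 to 735 RPKM in ceca and 610 to 652 RPKM in interceca, with 2 of the 5 higher and 1 lower in every ceca library. Leukocyte and erythroid marker sums were also higher in every ceca library, and those of pancreas and of enteric neural crest and neuron were lower. HBE, at means of 143 RPKM in ceca and 113 RPKM in interceca, made up nearly all of the erythroid sum. The pancreas sum was near 0, at up to 0.0574 RPKM in ceca and 0.726 RPKM in interceca. TUBB3, at means of 765 RPKM in ceca and 855 RPKM in interceca, made up most of the enteric neural crest and neuron sum. In that list 4 of 6 genes were lower in every ceca library. Of 5 leukocyte markers, 1 was higher and 1 lower in every ceca library. The part of these cell types in the levels of IGFBP2, IGF2 or VTN was not tested.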

How the data were processed

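RNA-seq values of 3 ceca and 3 interceca libraries were used as deposited by the authors in RPKM. The submitters' processing notes name the tools bcl2fastq, edgeR, HTSeq and STAR and the build galGal4. What each did, its settings and the annotation: not given in the sources used here. All 6 per-library files equal the series table, whose 17108 genes exclude 2 rows without a gene. The deposited table also holds the authors' log2 fold changes, p-values and -log10 adjusted p-values, per the file headers. The logFC column pointed the way of ceca over interceca for 100% of the genes with a deposited adjusted p under 0.05.

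RPKM are whole multiples of a step per gene, which gave back whole reads, within 0.01 read, for 99.9% of the 14080 genes above 0. The library size and any common factor of a gene's reads were chosen so that counted lengths came out as whole bases. Whole lengths are therefore no separate check on the recovered reads. The 95% intervals are confidence intervals of the log2 fold change in limma, computed from its standard error and so from the spread between libraries.

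The 10678 genes that reached 1 RPKM in 3 or more of the 6 libraries were put on the log2(RPKM + 0.5) scale. Tissue was fitted with limma 3.58.1 (R 4.3.3), using a mean-variance trend and 4 residual degrees of freedom. Two-sided p-values were adjusted by Benjamini-Hochberg across these 10678 genes, with 0.05 as the threshold. Fold changes on that scale understate those of low genes. The fit was tested on simulated data. There all genes were given the same spread beyond counting, whereas in the real data that spread differed between genes. No result here rests on that test. Figures were made with Python 3.11.15 and matplotlib 3.10.9.

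The members and gene lists were chosen with earlier results of these data known. Every member is named, as are up to 4 called pathway genes per role and direction, 12 pathway genes whatever their result, and the 3 genes most like each called member; 1 called pathway gene is counted but not reported here by name.

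The main fit did not pair the samples, and the replicate block, an alternative fit, paired them by replicate number. Deviations from the tissue means correlated at 0.364, 0.227 and 0.213 between libraries of the same number, and at -0.238 to 0.0314 otherwise. The labels do not state a pairing. Names and neighbours come from RefSeq (GRCg7b), another assembly, so no coordinates are given. Alternatives were another pseudocount, filter, scaling or trend setting, the replicate block, limma-voom and leaving out each library.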

Additional observations from a re-analysis of the deposited data

How the results depend on the processing

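IGF2 and IGFBP2 were called higher in ceca in all 16 alternative fits, and IGFBP3, IGFBP4 and IGFBP7 were called in none of those that tested them. IGF2R, not called, passed with limma-voom (log2 fold change 0.28, adjusted p = 0.0326, and 0.28 with no filter, adjusted p = 0.0329), and its fold change was 0.16 to 0.33 when a library was left out. IGFBP5, not called, passed with the replicate block (0.35, adjusted p = 0.0138), and was 0.24 to 0.52 with a library left out. The number of members called higher was 2 to 3 with a library left out and 4 with limma-voom and no filter, and none was called lower. Over all genes, 900 (without ceca replicate 3) to 1286 were called higher and 999 (without interceca replicate 2) to 1316 lower, against 1439 and 1502 with all libraries. Pathway genes called higher numbered 5 with quantile normalization, 13 with the replicate block and 4 to 7 with a library left out. Over all genes the count higher was 1581 with quantile normalization and 1879 with the replicate block. Pathway genes called lower numbered 4 with a filter of 5 RPKM, which tests fewer genes, 5 with no trend and 5 to 8 with a library left out. Over all genes the count lower was 1087 with that filter and 1405 with no trend. IGF2BP1, which was not called in any fit, ranged between -0.0375 and 0.029 on the log2 scale with a library left out, positive without ceca replicate 2 (0.0266) or interceca replicate 2 (0.029). The block changed no other call among the members. The causes were not tested. At these depths IGFBP1, PAPPA, PAPPA2, INS and IGFALS rest on few reads, and a count of 0 allows up to 3 reads, counting error only.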

Other observations

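GRB14, an adaptor that binds and inhibits the insulin receptor, was below the filter and was chosen after its values were seen. It had 22, 30 and 19 reads in ceca replicates 1 to 3 and 1, 4 and 9 reads in interceca replicates 1 to 3. Its levels were 0.248, 0.304 and 0.204 RPKM in ceca and 0.0148, 0.0466 and 0.0912 RPKM in interceca, with no overlap between the tissues. Among the genes that passed the filter, 23% had all ceca libraries above all interceca libraries. Because GRB14 was chosen after its values were seen, no test of it is given.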
